A study of Mus musculus with 6 samples.

Results

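The Id genes and the core of bone morphogenetic protein (BMP) signalling were followed in the mouse melanoma line B16-F1 and in 2 metastatic variants of it. The 10 genes were taken by symbol from the deposited table, which lists 23951 genes. They are the Id genes Id1, Id2, Id3 and Id4, the ligands Bmp4 and Bmp7, the receptors Bmpr1a and Bmpr2, and the receptor-activated SMADs Smad1 and Smad5. All 10 were in the table. The set was proposed because Id1 was seen to fall in B16-F1R2L, so values in that line are given as a description without a test. A fall is read against the other lines, and Id1 is therefore described without a p in every comparison. The other genes were tested in B16-F1R2 against B16-F1.

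B16-F1 has low metastatic potential and came from a cell repository. B16-F1R2 was grown from a metastasis in a lymph node, and B16-F1R2L from a lung metastasis that itself descended from one in a lymph node. Per the labels, both variants came from 1 laboratory that was not the source of the parental line, and an effect of this origin and one of the line cannot be told apart. All 3 lines were untreated and grown in the same medium, and no engineered allele is named for any of them. Each line was represented by 2 libraries of polyadenylated RNA. The sources used here do not say whether these came from separate cultures, and the p-values therefore measure only the spread between these libraries, which may be technical.

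BMP ligands are secreted dimers that bring together type I receptors such as BMPR1A and type II receptors such as BMPR2 on the cell surface. The type I receptor kinase then phosphorylates SMAD1, SMAD5 and SMAD9, which join SMAD4 and enter the nucleus. The Id genes are among their best known direct targets. Id proteins carry a helix-loop-helix domain without the basic stretch that contacts DNA, and they hold E proteins in pairs that cannot bind it. In many cell types they are known for holding back differentiation, and Id1 for repressing Cdkn2a, the gene of the cell cycle inhibitor p16.

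To place the Id genes beside the motifs that BMP signalling is known to use, the window from 250 bases before to 50 bases after the annotated start was read for 3 of them from RefSeq promoters on GRCm38.p6. They stand for the Id gene with the highest level in these cells (Id2), one with a moderate level (Id3) and one listed at 0 (Id4). Capitals mark matches on either strand to GGCGCC, a GC-rich element bound by SMAD1 and SMAD5, to CAGAC, a SMAD box, and to CCAAT, a general promoter element.
Id2, chr12:25096043-25096342, minus strand: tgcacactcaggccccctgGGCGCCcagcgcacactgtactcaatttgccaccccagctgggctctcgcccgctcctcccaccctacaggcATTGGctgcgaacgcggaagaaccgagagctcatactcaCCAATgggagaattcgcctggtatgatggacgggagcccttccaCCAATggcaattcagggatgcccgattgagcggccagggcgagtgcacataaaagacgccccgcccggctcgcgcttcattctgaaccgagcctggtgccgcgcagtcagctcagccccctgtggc
Id3, chr4:136143572-136143871, plus strand: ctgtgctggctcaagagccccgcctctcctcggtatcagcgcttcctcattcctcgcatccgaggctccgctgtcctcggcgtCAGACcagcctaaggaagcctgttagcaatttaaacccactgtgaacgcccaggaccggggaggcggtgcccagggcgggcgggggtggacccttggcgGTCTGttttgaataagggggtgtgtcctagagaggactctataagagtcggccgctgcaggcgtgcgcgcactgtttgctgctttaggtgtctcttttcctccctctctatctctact
Id4, chr13:48260866-48261165, plus strand: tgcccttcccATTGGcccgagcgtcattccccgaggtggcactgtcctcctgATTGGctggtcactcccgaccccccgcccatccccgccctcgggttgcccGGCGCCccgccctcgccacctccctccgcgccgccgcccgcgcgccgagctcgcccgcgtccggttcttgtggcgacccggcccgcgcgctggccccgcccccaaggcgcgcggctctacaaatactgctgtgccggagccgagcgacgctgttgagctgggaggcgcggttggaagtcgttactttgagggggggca

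The Id2 window held 1 GGCGCC and 3 CCAAT matches and no CAGAC. The Id3 window held 2 CAGAC matches and neither of the other motifs, and the Id4 window held 1 GGCGCC and 2 CCAAT matches. Of the 32851 promoter windows in the RefSeq table, 11.9% held GGCGCC, 49.6% held CAGAC and 37.4% held CCAAT, and no match overlapped another in these 3 windows. Id4, listed at 0, thus shared the GGCGCC letters with Id2. A promoter window was found for 8 of the 10 genes, and Id1 and Bmp7 were not among them.

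Expression was deposited as FPKM, the fragments per kilobase of transcript scaled to the mapped reads of the library, which are comparable between genes because they are divided by length. Whether the libraries were scaled to each other beyond this is not given in the sources used here. Lines were compared on log2(FPKM + 0.1) with limma, a linear model that pools the spread over genes, keeping the 11379 genes that reached 1 FPKM in 2 or more libraries. A change was called at a Benjamini-Hochberg adjusted p under 0.05 over all of these genes, and the scale understates changes of genes with low values. Of the 10 genes, 7 passed this filter, and Id4, Bmp4 and Bmp7 did not. The FPKM of a library summed to between 596657 and 672794, and the depth, estimated from the lowest values of genes with a single transcript, lay between 12.6 and 14.7 in units of 1000000 reads. All 7 melanocyte markers examined (Mitf, Sox10, Pmel, Tyr, Tyrp1, Dct and Mlana) were present in every line, with sums of 14970 to 15010 FPKM for B16-F1, of 7909 to 8125 for B16-F1R2 and of 8924 to 8933 for B16-F1R2L. Of 26 markers of macrophages, lymphocytes, endothelium, fibroblasts and epithelium, 12 were listed at 0 in all libraries, among them Ptprc, Cd3e, Cdh5, Dcn, Lum and Sftpc. Those above 1 FPKM in any library were Lyz2, Pecam1, Prox1 and Cd79a. The B cell gene Cd79a was at 12.4 to 17.1 FPKM in the variants against 0 and 0.0593 in B16-F1, and the sum over all 6 lymphocyte markers was 0.0204 to 0.0806 in B16-F1, 12.5 to 12.8 in B16-F1R2 and 15.9 to 17.1 in B16-F1R2L. The macrophage sum was 0.504 to 0.970, 0.956 to 1.29 and 1.68 to 2.13 in the same order, and the endothelial sum 1.63 to 1.66, 1.55 to 1.72 and 2.25 to 2.38. The fibroblast sum was at most 0.170 and the epithelial sum at most 0.276. The part of these markers, and of the lower melanocyte markers, in the results was not tested.

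Of the 4 Id genes, Id2 made up most of the Id messages in every line. The B16-F1 libraries had 149 and 142 FPKM of Id2, those of B16-F1R2 had 75.9 and 69.8, and those of B16-F1R2L had 66.6 and 73.5. The variants lay apart from B16-F1 and overlapped each other. Against B16-F1, the level in B16-F1R2 fell by 0.995 on the log2 scale (standard error 0.067, adjusted p = 6.3e-05), from 145 ± 5.16 to 72.9 ± 4.28 FPKM (SD, n = 2), which is 49.9% lower. In these bulk samples, fewer cells with the message and less message per cell cannot be told apart. In B16-F1 the mean of Id2 exceeded that of 93.8% of the tested genes, and in the variants that of 88.0% and 88.2%. The log2 difference of B16-F1R2L from B16-F1R2 was -0.06, and its sign turned with rescaling of the libraries to equal sums (0.05), with quantile normalization (0.02) and when the first library of either variant was left out. From B16-F1 it was -1.05. Id2 lies on the minus strand of chromosome 12 from 25778666 to 25780957 of NCBIM37, the assembly named mm9, and has 1 annotated transcript of 1270 bases.

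Id3, on the plus strand of chromosome 4 from 135699412 to 135701670, had a different profile. B16-F1 had 13.7 and 15.2 FPKM, B16-F1R2 had 13.4 and 12.2, and B16-F1R2L had 8.64 and 6.71. Both libraries of B16-F1R2L lay below the other 4. Between B16-F1R2 and B16-F1 the log2 difference was -0.17 (standard error 0.13) and did not pass the test (adjusted p = 0.29, and 0.12 to 0.64 over the alternatives). The mean in B16-F1R2L was 40.0% lower than in B16-F1R2 and 46.9% lower than in B16-F1, given without a test.

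Id1 was the weakest of the 3 detected Id genes. B16-F1 had 1.65 and 2.43 FPKM of it, B16-F1R2 had 1.07 and 0.883, and B16-F1R2L had 0.259 and 0.218. The 3 lines did not overlap. The mean was 2.04 ± 0.553 FPKM in B16-F1 and 0.977 ± 0.133 in B16-F1R2 (SD, n = 2), a log2 difference of -0.97 (standard error 0.248). This difference was -0.71 without the second B16-F1 library and -0.85 without the second B16-F1R2 library, and it ran from -1.63 with quantile normalization to -0.61 with a pseudocount of 1. The values that led to the choice of these genes are those of B16-F1R2L, where the mean of 0.239 ± 0.0294 FPKM (SD, n = 2) was 8.55-fold lower than in B16-F1 and 4.09-fold lower than in B16-F1R2. On the log2 scale the difference from B16-F1 was -2.64, and it ran from -3.54 with quantile normalization to -1.28 with a pseudocount of 1. At the lengths of its annotated transcripts, 934 and 1160 bases, these values correspond to an estimated 2.99 to 4.01 reads in each B16-F1R2L library, 12.0 to 17.0 in each B16-F1R2 library and 20.4 to 35.5 in each B16-F1 library. Id1 thus rests on a handful of reads in B16-F1R2L. Id1 lies on the plus strand of chromosome 2 from 152561987 to 152563146.

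Id4, on chromosome 13 from 48356796 to 48359405, was listed at 0 in all 6 libraries. Summed over the family, the Id messages came to 164 and 159 FPKM (B16-F1), 90.3 and 82.9 (B16-F1R2) and 75.5 and 80.5 (B16-F1R2L). Id2 held 88.9% to 90.7% of this sum in the parental line, 84.0% and 84.2% in B16-F1R2, and between 88.2% and 91.4% in B16-F1R2L. Id3 held between 8.34% and 14.8% of it and Id1 at most 1.53%. The ratio of Id2 to Id3 was 10.9 and 9.31 for the B16-F1 libraries, 5.67 and 5.72 for those of B16-F1R2 and 7.70 and 11.0 for those of B16-F1R2L.

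**Figure D1:**
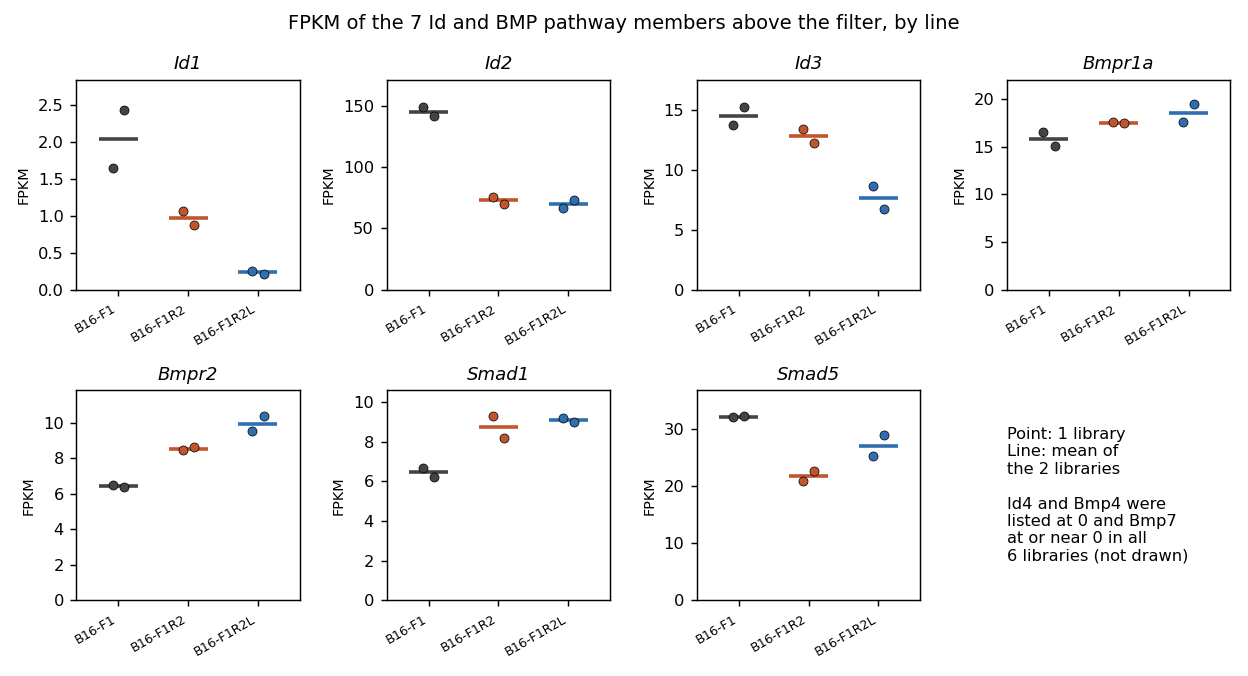
FPKM (vertical axis, from 0) of the 7 genes that passed the filter in the 3 lines (horizontal axis); each point is 1 library and each line the mean of 2. In B16-F1R2, Id1, Id2 and Smad5 lay below their B16-F1 values, Bmpr2 and Smad1 lay above them, and both Id3 libraries of B16-F1R2L lay below the other 4.

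On the receiving side of the pathway, the messages were present and of moderate level. Bmpr1a encodes a type I receptor and lies on the minus strand of chromosome 14 from 35223920 to 35316527. It was measured at 16.6 and 15.1 FPKM (B16-F1), 17.6 and 17.5 (B16-F1R2) and 17.6 and 19.5 (B16-F1R2L). The values of the variants lay slightly above those of B16-F1. Between B16-F1R2 and B16-F1 the log2 difference was 0.15 (standard error 0.073) and did not pass the test (adjusted p = 0.13, and 0.092 to 0.49 over the alternatives). An exon of the gene Gm17110 on the opposite strand overlaps exons of Bmpr1a. The kit kept the strand, but the sources used here do not say whether the FPKM used it, and reads of these genes then cannot be told apart.

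Bmpr2 encodes the type II receptor and lies on the plus strand of chromosome 1 from 59821481 to 59927703. Its FPKM were 6.49 and 6.39 (B16-F1), 8.45 and 8.65 (B16-F1R2) and 9.54 and 10.4 (B16-F1R2L). The 3 lines did not overlap. The gene rose in B16-F1R2 (standard error 0.070 of a log2 fold change of 0.40, adjusted p = 0.0034), a 1.33-fold higher mean. The B16-F1R2L mean was 1.54-fold that of B16-F1 and 1.16-fold that of B16-F1R2. The ratio of Bmpr1a to Bmpr2 was 2.55 and 2.36 for the B16-F1 libraries, 2.08 and 2.02 for those of B16-F1R2 and 1.85 and 1.88 for those of B16-F1R2L.

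The receptor-activated SMADs differed between B16-F1R2 and B16-F1 in opposite directions. Smad1, on the minus strand of chromosome 8 from 81862294 to 81923417, was measured at 6.66 and 6.23 FPKM (B16-F1), 9.29 and 8.19 (B16-F1R2) and 9.19 and 8.96 (B16-F1R2L). It rose in B16-F1R2 (log2 fold change 0.43, standard error 0.084, adjusted p = 0.0055), and both variants lay above B16-F1 and overlapped each other. The sign of the difference between the variants (0.06) turned with quantile normalization (-0.02) and without the second B16-F1R2 library (-0.03). Smad5, on the plus strand of chromosome 13 from 56804371 to 56843738, was measured at 32.1 and 32.3 FPKM (B16-F1), 20.8 and 22.6 (B16-F1R2) and 25.3 and 28.9 (B16-F1R2L). It fell by 0.566 on the log2 scale in B16-F1R2 (standard error 0.076, adjusted p = 0.0011), a mean 32.5% lower. In B16-F1R2L it lay between the other lines, with a log2 difference of 0.32 from B16-F1R2 and -0.25 from B16-F1. The latter was -0.15 with rescaling to equal sums as well as without the first B16-F1R2L library, and -0.35 without the second. Smad5 stayed the more abundant of the pair in every library. The libraries of B16-F1 had 4.82 and 5.19 times as much Smad5 as Smad1, those of B16-F1R2 2.24 and 2.76 times, and those of B16-F1R2L 2.75 and 3.23 times.

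The ligands Bmp4 and Bmp7 were not detected above single reads. Bmp4, on chromosome 14 from 47003195 to 47010344, was listed at 0 in all 6 libraries. Bmp7, on chromosome 2 from 172693513 to 172765822, was listed at 0.0240 FPKM in the second B16-F1 library, at 0.0410 in the second B16-F1R2 library and at 0 in the other 4. These values correspond to an estimated 0.296 to 2.19 reads.

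In B16-F1R2 against B16-F1, 2 of the 6 genes tested apart from Id1 were higher (Bmpr2 and Smad1) and 2 were lower (Id2 and Smad5), while over all tested genes 28.2% were called higher and 27.2% lower. These 4 of 6 are 66.7%, beside 55.4% of all tested genes, so calls were common in the whole table as well. The median log2 fold change of the 6 genes was -0.01, against 0.01 over all tested genes. With 2 libraries a line, the smallest two-sided p of an exact permutation test is 0.333, and each call therefore depends on the pooled variance of the model.

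In every line the levels began with Id2, followed by Smad5 and Bmpr1a. In B16-F1, Bmpr1a and Id3 overlapped, as did Bmpr2 and Smad1. In B16-F1R2 only Smad1 and Bmpr2 overlapped among the 7 genes above the filter. In B16-F1R2L, Bmpr2, Smad1 and Id3 followed Bmpr1a in that order, with no overlap between neighbours, so that Id3 had 3 of the 7 genes above it in the first 2 lines and 5 in B16-F1R2L. Id1 was the lowest of the 7 in every line. In alignments of the longest coding transcript of each gene to the genome (at least 50 bases at 96% identity or more), 9 of the 10 had no match outside their own locus. Bmpr2 had 1, of 128 bases, which is 3.65% of its transcript.

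**Figure D2:**
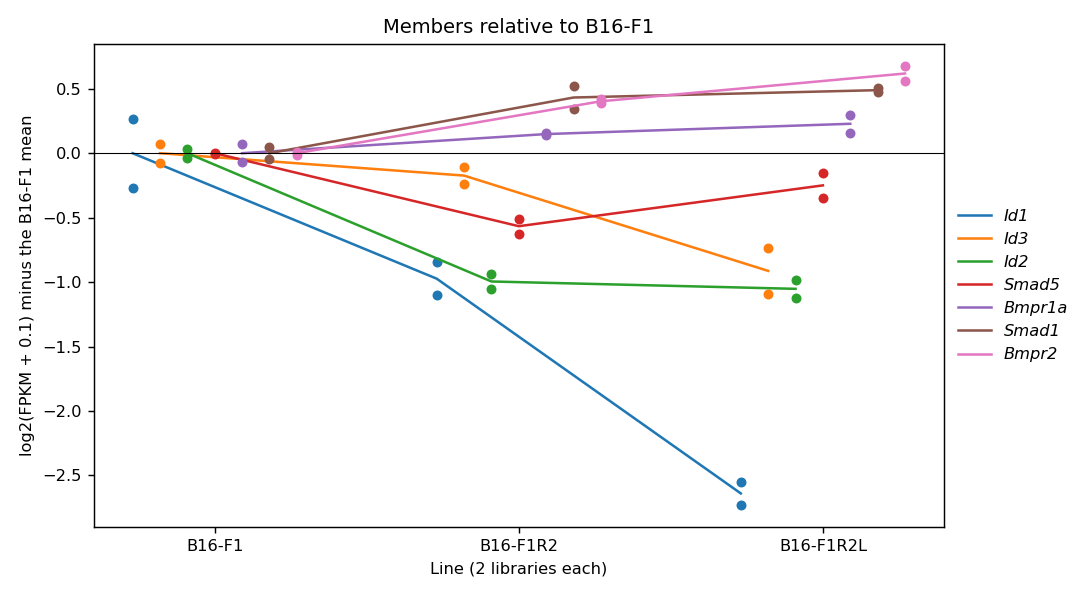
Values of log2(FPKM + 0.1) minus the B16-F1 mean (vertical axis) for the 7 genes in each line (horizontal axis); points are libraries, and lines join the means. Id1 reached -2.64 in B16-F1R2L, a value that depends on the pseudocount, Id2 stood at -0.995 and -1.05 in the variants, and Bmpr2 at 0.40 and 0.62.

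By the root mean square difference between centred log2(FPKM + 0.1) profiles over the 6 libraries, which share their depth and line differences, the tested genes most like Id1 were Abca12 (0.290), Etv5 (0.375) and Prr5 (0.383). Abca12 was listed at 16.8 and 17.5 FPKM (B16-F1), 7.66 and 7.89 (B16-F1R2) and 3.40 and 3.63 (B16-F1R2L). Those nearest to Id2 were Mtmr10 (0.0395), Cfl2 (0.0530) and Ptger1 (0.0577). Mtmr10 was at 21.7 and 21.5 FPKM in B16-F1 and between 10.1 and 11.0 in both variants. Those nearest to Id3 were Sac3d1 (0.0651), Ppp1r14b (0.0947) and Rita1 (0.118). Sac3d1 was at 25.5 and 24.8 FPKM (B16-F1), 23.4 and 21.9 (B16-F1R2) and 14.8 and 12.5 (B16-F1R2L).

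To see the rest of the pathway around these genes, 67 further genes were listed by role, of which 32 passed the filter. In B16-F1R2 against B16-F1, 9 of the 32 rose, 12 fell and 11 did not pass the test, so 65.6% were called, with a median log2 fold change of -0.05. The whole table had 55.4% called. Without the second B16-F1R2 library fewer genes of the list rose, but fewer were then called over all genes as well. Atoh8 and Gdf7 did not pass the filter in that fit. Of the 9, Fstl3, Atoh8 and Gata2 were under 1 FPKM in both B16-F1 libraries and passed the filter only through the variants, so that a gene of this kind could enter the test only if it was higher there.

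Of the 12 other ligands, 7 were listed at 0 in every library (Bmp2, Bmp5, Bmp6, Bmp10, Gdf2, Gdf5 and Gdf6), and 4 stayed at or below 0.0923 FPKM. Gdf7 alone passed the filter. It was listed at 0.667 and 0.137 FPKM (B16-F1), 0.939 and 1.25 (B16-F1R2) and 1.32 and 0.378 (B16-F1R2L). The libraries of B16-F1 and of B16-F1R2L lay far apart within their line, and no contrast passed the test (log2 fold change 1.48, standard error 0.69, adjusted p = 0.11 in B16-F1R2 against B16-F1).

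The extracellular antagonists held the largest rise of the list, that of Fstl3. Fstl3, a follistatin-like protein known for binding activins and myostatin, was listed at 0.0476 and 0.04999 FPKM (B16-F1), 2.87 and 2.47 (B16-F1R2) and 2.02 and 2.08 (B16-F1R2L). The B16-F1 values correspond to an estimated 0.401 to 1.23 reads in each library. Fstl3 rose in B16-F1R2 (log2 fold change 4.21, standard error 0.18, adjusted p = 1.1e-05, and 1.2e-04 with no filter), with a size that the pseudocount sets, from 1.80 at a pseudocount of 1 to 5.51 at 0.01. Fstl1, a secreted glycoprotein that binds BMP4, was measured at 1.67 and 1.44 FPKM (B16-F1), 4.90 and 5.38 (B16-F1R2) and 8.41 and 8.43 (B16-F1R2L). It rose in B16-F1R2 (log2 fold change 1.66, standard error 0.10, adjusted p = 4.9e-05), and the 3 lines did not overlap. Twsg1, which binds BMPs together with chordin, fell from 14.2 and 14.3 FPKM to 10.8 and 11.3 in B16-F1R2 (log2 fold change -0.36, adjusted p = 0.0022). Dand5, a member of the DAN family, did not pass the test (log2 fold change 0.22, adjusted p = 0.16). The other 13 of the 17 antagonists did not pass the filter and stayed at or below 0.422 FPKM, and 6 of them, Grem1 and Fst among these, were listed at 0 throughout.

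Of the 8 tested receptors and co-receptors outside the core set, 6 fell in B16-F1R2 and 1 rose, where 27.2% of all tested genes were called lower and 28.2% higher. Rgmb, a membrane-anchored BMP co-receptor, was measured at 10.0 and 10.3 FPKM (B16-F1), 3.88 and 4.01 (B16-F1R2) and 4.17 and 4.30 (B16-F1R2L). It fell in B16-F1R2 (log2 fold change -1.34, standard error 0.075, adjusted p = 3e-05). Its relative Rgma had 9.69 and 8.36 FPKM (B16-F1) and 5.43 and 6.003 (B16-F1R2), with -0.65 as its log2 fold change and an adjusted p of 0.0017. Neo1, which encodes the neogenin receptor for both of these proteins, fell as well (log2 fold change -0.55, adjusted p = 2.8e-04). Eng, which encodes endoglin, had the highest level in this group, with 96.9 and 101 FPKM (B16-F1), 65.5 and 67.3 (B16-F1R2) and 69.4 and 60.0 (B16-F1R2L), and it fell in B16-F1R2 (log2 fold change -0.57, adjusted p = 8.7e-04). Of the type I receptors, Acvr1 fell (log2 fold change -0.37, adjusted p = 0.0099) and Acvrl1 rose (0.31, adjusted p = 0.0065), while Bmpr1b stayed at or below 0.0128 FPKM. Of the type II receptors, Acvr2a fell (log2 fold change -0.37, adjusted p = 0.025) and Acvr2b did not pass the test (-0.04, adjusted p = 0.86).

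Among the proteases that process ligands and antagonists, Bmp1, a metalloproteinase that cleaves chordin and procollagens, rose to 9.67 and 10.2 FPKM in B16-F1R2, against 4.54 and 5.21 in B16-F1 (log2 fold change 1.02, standard error 0.092, adjusted p = 2.1e-04). Furin, which cuts BMP precursors, fell (log2 fold change -0.36, adjusted p = 0.0058). Smad4, the common partner, had 29.4 and 27.7 FPKM (B16-F1) and 25.4 and 26.3 (B16-F1R2), with -0.14 as its log2 fold change and an adjusted p of 0.069, and Smad9 did not pass the filter. All 11 intracellular and membrane inhibitors passed it, of which 1 rose, 3 fell and 7 did not pass the test, so that 36.4% were called against 55.4% of all tested genes. Those that fell were Ctdsp1, a phosphatase that acts on SMADs (log2 fold change -0.48, adjusted p = 2.9e-04), and the ubiquitin ligases Smurf1 (-0.33, adjusted p = 0.0056) and Smurf2 (-0.29, adjusted p = 0.0035). Tob1, a SMAD-binding antiproliferative protein, rose (0.32, adjusted p = 0.018), a call lost without the second library of either line. The inhibitory SMADs Smad6 and Smad7 are themselves BMP targets, and they had log2 fold changes of 0.24 (adjusted p = 0.30) and -0.001 (adjusted p = 0.99).

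Of 7 BMP targets other than Id genes, 2 passed the filter, Atoh8 only through the B16-F1R2 libraries and Gata2 only through the variants, so their count carries no direction. With no filter their adjusted p in B16-F1R2 against B16-F1 was 0.002 and 0.034. Atoh8, which encodes a basic helix-loop-helix factor, was listed at 0.131 and 0.318 FPKM (B16-F1), 2.20 and 2.79 (B16-F1R2) and 0.615 and 0.677 (B16-F1R2L). With its single annotated transcript of 2355 bases, the B16-F1 values correspond to an estimated 4.08 and 9.42 reads. Its log2 fold change of B16-F1R2 against B16-F1 was 3.05 (standard error 0.32, adjusted p = 3.9e-04), and it lay between 1.51 with a pseudocount of 1 and 3.53 with one of 0.01. Gata2, a transcription factor, had 0.663 and 0.812 FPKM (B16-F1) and 1.37 and 1.17 (B16-F1R2), with 0.71 as its log2 fold change and an adjusted p of 0.020. The Gata2 call was lost with quantile normalization (log2 fold change 0.05) and without the first library of either line. Hey1, Msx1, Msx2, Dlx5 and Runx2 stayed at or below 0.470 FPKM.

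The E proteins that Id proteins bind were all present. Tcf12 was the most abundant, with 78.0 and 76.6 FPKM (B16-F1), 67.4 and 66.8 (B16-F1R2) and 77.8 and 85.4 (B16-F1R2L). Between B16-F1R2 and B16-F1 it fell by 0.204 on the log2 scale (adjusted p = 0.017), Tcf3 rose by 0.14 (adjusted p = 0.035) and Tcf4 rose by 0.28 (adjusted p = 0.017). The Tcf12 call was lost in 5, the Tcf3 call in 6 and the Tcf4 call in 2 of the 16 alternatives, leaving out the second library of B16-F1 or of B16-F1R2 among them.

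**Figure D3:**
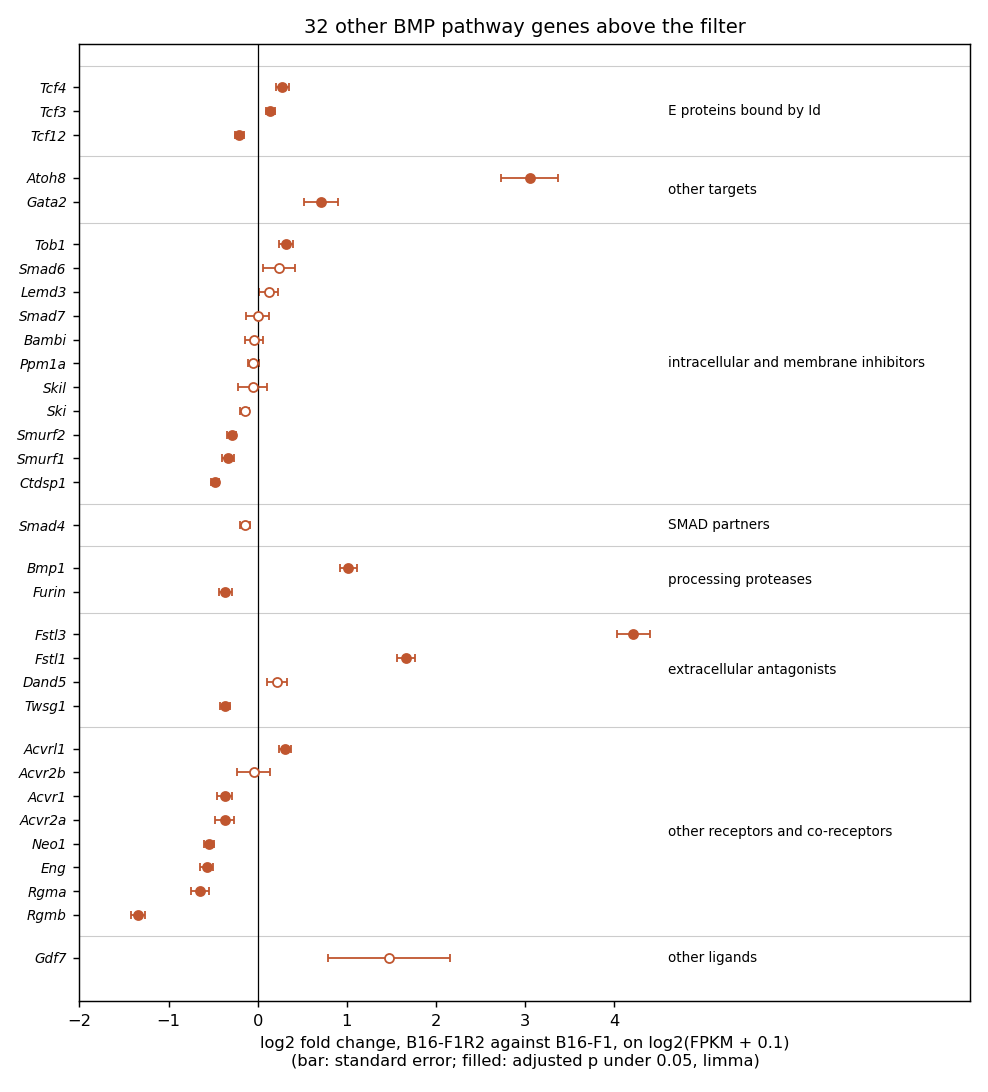
Log2 fold change of B16-F1R2 against B16-F1 on log2(FPKM + 0.1) (horizontal axis) for the 32 tested genes of the wider list (vertical axis, grouped by role); bars are standard errors and filled points passed the test. Fstl3 lies farthest to the right at 4.21 and Rgmb farthest to the left at -1.34.

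The wider list was also tested in B16-F1R2L; like the 10 genes, it was drawn up with earlier results of these data known. Against B16-F1R2, 2 of the 32 genes were higher and 3 lower, that is 15.6%, where 22.6% of all tested genes were called (12.1% higher and 10.5% lower). Fstl1 was higher (log2 fold change 0.70, standard error 0.10, adjusted p = 0.0096), and so was Tcf12 (0.28, adjusted p = 0.017). Atoh8 was lower (log2 fold change -1.79, standard error 0.32, adjusted p = 0.015), as were Tcf3 (-0.21, adjusted p = 0.025) and Smad7 (-0.60, standard error 0.13, adjusted p = 0.026). Atoh8 was admitted to this test by its high B16-F1R2 values and could not be tested without either of those libraries; with no filter its adjusted p was 0.038. Smad7 was measured at 2.07 and 2.35 FPKM (B16-F1R2) and 1.36 and 1.49 (B16-F1R2L). All of these calls were lost without the second B16-F1R2L library. The log2 fold changes were then 0.70 (Fstl1), 0.21 (Tcf12), -1.85 (Atoh8), -0.18 (Tcf3) and -0.66 (Smad7). The calls of Fstl1, Tcf12, Tcf3 and Smad7 were also lost without the first B16-F1R2 library, where Atoh8 did not pass the filter. Without the second B16-F1R2 library those of Tcf12, Tcf3 and Smad7 were lost, and Fstl1 stood at 0.77. Smad7 was lost in 6 of its 15 alternatives and Tcf3 in 8 of 16.

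Of the 8 tested receptors and co-receptors, 0 passed the limma test in B16-F1R2L against B16-F1R2, where 22.6% of all tested genes were called. At an unadjusted p under 0.05 there was 1, and the share of all genes at that cut-off was not counted. So few genes cannot show whether receptors changed less often than the rest. With the libraries rescaled to equal sums, the calls over all genes shifted from 53.7% to 81.0% higher and the median of all genes from 0.02 to 0.13, and on the list 4 genes were higher and 1 lower. Under that scaling Atoh8 stood at -1.74 (adjusted p = 0.018) and Smad7 at -0.50 (adjusted p = 0.064), both below that median.

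Against B16-F1, B16-F1R2L had 9 list genes higher and 13 lower, or 68.8% of 32, with 56.7% of all tested genes called (29.5% higher and 27.1% lower). The 13 lower became 7 with rescaling to equal sums, where lower calls over all genes went from 3086 to 2043. Without the first B16-F1 library fewer genes were called lower, on the list as over all genes. This comparison shares the B16-F1 libraries with that of B16-F1R2 against B16-F1. Fstl3 (log2 fold change 3.85, adjusted p = 1.5e-05, and 1.4e-04 with no filter), Fstl1 (2.37, adjusted p = 1.1e-05) and Bmp1 (0.85, adjusted p = 4.5e-04) were higher. Fstl3 entered this test only through the variants, and its value ran from 1.54 with a pseudocount of 1 to 5.13 with one of 0.01. Rgmb (-1.24, adjusted p = 3.8e-05), Eng (-0.61, adjusted p = 6.3e-04), Acvr1 (-0.54, adjusted p = 0.0021), Neo1 (-0.45, adjusted p = 6.5e-04), Smurf1 (-0.51, adjusted p = 9.4e-04), Ctdsp1 (-0.36, adjusted p = 9.9e-04) and Smad7 (-0.60, adjusted p = 0.0089) were lower. Dand5 (0.55, adjusted p = 0.0077) and Tcf4 (0.23, adjusted p = 0.031) were higher as well. Also lower were Ski (-0.28, adjusted p = 0.0049), Smad4 (-0.21, adjusted p = 0.017), Twsg1 (-0.21, adjusted p = 0.020) and Furin (-0.21, adjusted p = 0.044). Ski, a repressor of SMAD transcription, Smad4, Twsg1 and Furin lost their calls with rescaling to equal sums, and Dand5 and Tcf4 with quantile normalization. The Furin call was lost in 10 of the 16 alternatives, that of Tcf4 in 5, Twsg1 in 4, Smad4 in 3 and Ski in 1. Leaving out a B16-F1 or B16-F1R2L library also ended the calls of Smad4, Twsg1, Furin and Tcf4, and that of Smad7 without the second B16-F1 library (adjusted p = 0.050). Atoh8 was higher by 1.26 (adjusted p = 0.015) and Gata2 by 0.78 (adjusted p = 0.014), and both became negative with quantile normalization (-1.02 with an adjusted p of 0.013, and -0.21 with one of 0.49). Atoh8 was under 1 FPKM in all 4 libraries of this comparison and was tested only through B16-F1R2, and Gata2 only through the variants, so neither direction is firm. The Atoh8 call was lost without the second B16-F1R2L library and the Gata2 call without the first library of either line. Rescaling to equal sums moved the calls over all genes from 52.1% to 66.6% higher and the median from 0.02 to 0.12.

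**Figure D4:**
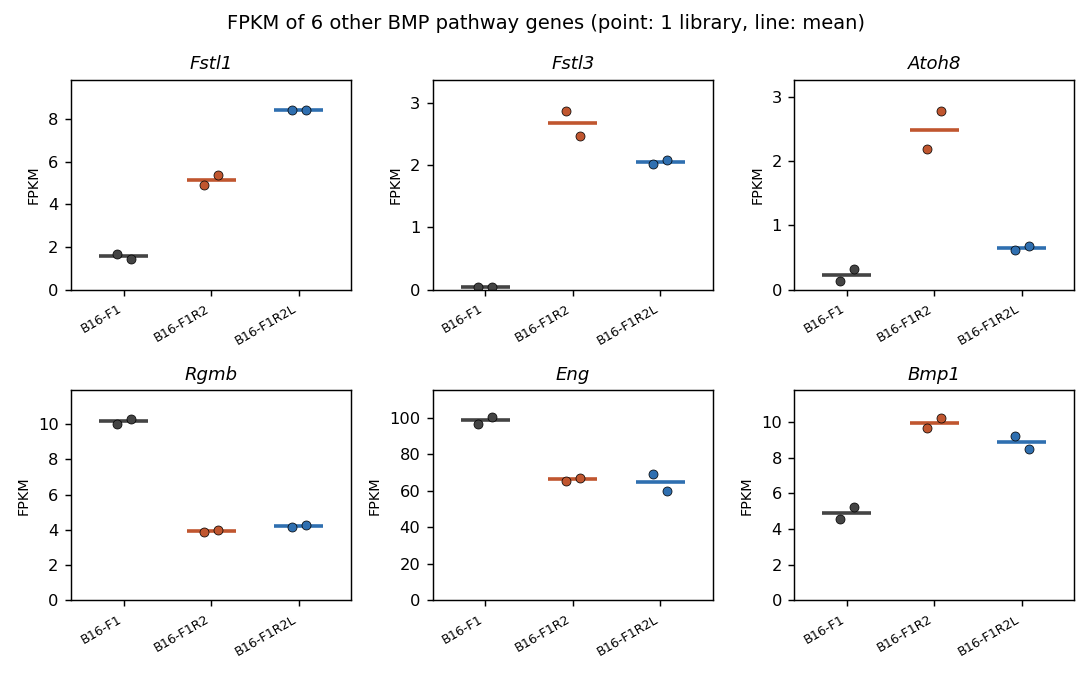
FPKM (vertical axis, from 0) of 6 genes of the wider list in the 3 lines (horizontal axis); each point is 1 library and each line the mean of 2. Fstl1 was highest in B16-F1R2L at 8.41 and 8.43, Atoh8 was highest in B16-F1R2 at 2.20 and 2.79, and Rgmb and Eng were highest in B16-F1.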

How the data were processed

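Gene expression was measured in 6 libraries, 2 for each of the 3 lines. The authors prepared polyadenylated RNA with a stranded kit, read 50 bases from a single end and mapped the reads to NCBI37/mm9 with TopHat2 2.0.10 and Bowtie 1.0.0, which could assign a read to several places. The submitters' processing notes also name Cuffnorm and DESeq2. The authors deposited FPKM, 1 column per library, and the gene annotation is not given in the sources used here. Because this unit is no count, DESeq2, the tool of the study, was not applied.

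Lines were assigned from the sample labels. Differences in log2(FPKM + 0.1) were tested over all 6 libraries by a linear model with moderated, intensity-dependent variance (limma 3.58.1, R 4.3.3), with Benjamini-Hochberg adjustment over the 11379 genes at 1 FPKM or more in at least 2 libraries. The steps were tested on simulated data. Alternatives were other pseudocounts, filters and scalings, no trend, 4 libraries only, a block for the replicate number and each library left out. The members and lists were chosen with earlier results of these data known. All 10 members are named. Of the wider list, at most 4 called genes of a role are named in each comparison for having the largest change. Further genes of a role are named for their levels or test results, without a fixed number. They were picked with their values known. For each tested Id gene, the 3 most similar profiles are named. Positions come from NCBIM37 with GENCODE M1, and promoters from RefSeq on GRCm38.p6. The depth is the inverse of the median RPM of the lowest cluster of genes with 1 transcript over 1500 bases, a rough estimate. Python 3.11.15 with pandas 2.3.3 served for other steps.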

Additional observations from a re-analysis of the deposited data

How the results depend on the processing

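Of the members, Bmpr2 and Smad1 rose and Id2 and Smad5 fell in B16-F1R2 against B16-F1 under all 16 alternatives, and Id3 and Bmpr1a passed the test under none. Id1 is left out here because its values led to the choice of the genes. In counts of the wider list (main values 9 higher and 12 lower, 2 and 3, and 9 and 13 in the order of the report), leaving out each library gave 5 to 9 higher and 9 to 12 lower in B16-F1R2 against B16-F1, 0 to 2 higher and 0 to 2 lower in B16-F1R2L against B16-F1R2, and 7 to 8 higher and 8 to 13 lower in B16-F1R2L against B16-F1. The fewest rises in B16-F1R2 against B16-F1 came without the second B16-F1R2 library. The fewest falls in B16-F1R2L against B16-F1 came without the first B16-F1 library. Over all genes fewer were called in these fits as well. Between the variants no call of the list remained without the first B16-F1R2 or the second B16-F1R2L library. Most calls over all genes were lost in these fits as well. With a minimum of 5 FPKM, 1 gene was lower between the variants and 5 were higher in B16-F1R2L against B16-F1, because fewer genes were tested. After rescaling to equal sums, 4 were higher and 1 lower between the variants, and 7 were lower in B16-F1R2L against B16-F1. With quantile normalization Atoh8 and Gata2 turned to -1.02 and -0.21 in that comparison; the cause was not tested.

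The replicate numbers come from the titles, and no source says that they mark shared cultures. Same-numbered libraries deviated from their line means with correlations of 0.0519 (B16-F1 and B16-F1R2), -0.102 (B16-F1 and B16-F1R2L) and 0.0789 (both variants), so the libraries were not treated as pairs. With a replicate block the 3 counts were 9 and 12, 2 and 3, and 9 and 12, and of the genes named the call of Furin in B16-F1R2L against B16-F1 was lost (adjusted p = 0.051). Low depth limits Id1 in B16-F1R2L and Fstl3 and Atoh8 in B16-F1, where single reads move the values.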
